A study of Mus musculus with 12 samples.

Results

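Levels of 10 growth factor ligand genes that mesenchymal cells are known to make were followed in SKPs, or skin-derived precursors, which are cells of the dermis cultured as free-floating spheres. The genes were Fgf7, Fgf10, Fgf2, Fgf18, Hgf, Angpt1, Pdgfa, Nrg1, Hbegf and Areg, taken by their symbols in the array's annotation with the brightest probe set of each. Of the 10, 9 had a probe set with a single symbol and all 9 were among the 13153 genes tested, out of 22180 genes with such a probe set; Areg had none and is not analysed here. Affymetrix Mouse Gene 2.0 ST arrays were used for 3 independent isolates in each of 4 groups: wounded skin given trimebutine maleate (a drug for gut motility), wounded skin given alprostadil (prostaglandin E1), wounded skin given vehicle, and uninjured skin given vehicle. All mice were 9 months old and of the strain labelled CD57/Bl6. The culture medium of every group held 40 ng/ml of FGF2, 20 ng/ml of EGF and 2% B27, at a density of 50000 cells per ml, and RNA came from secondary spheres, so that every group was exposed in culture to added protein of 1 of the ligands and to a ligand of EGFR. The sources used here do not give drug doses, times of treatment or the skin site. By its title, the study looked for drugs that improve the repair of skin.

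These ligands are secreted or membrane-anchored proteins that act through receptor tyrosine kinases. FGF7, FGF10 and HGF are known as signals from the dermis to the epithelium, since their receptors, the epithelial forms of FGFR2 and MET, are found largely on epithelial cells. FGF2, FGF18 and PDGFA also act on mesenchymal cells, ANGPT1 on the TEK receptor of endothelial cells, and NRG1, HBEGF and AREG on receptors of the ERBB family. FGFs bind heparan sulfate on the cell surface, and the ERBB ligands are made as membrane precursors that metalloproteases release.

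In the mouse genome build GRCm38.p6, the genes lie at chr2:126034658-126091185 (Fgf7), chr13:118714699-118792573 (Fgf10), chr3:37348477-37410106 (Fgf2), chr11:33116970-33147400 (Fgf18), chr5:16553495-16619439 (Hgf), chr15:42424667-42676977 (Angpt1), chr5:138976014-139000792 (Pdgfa) and chr8:31807452-32891609 (Nrg1). The 250 bases before the start of Fgf7 are shown because it had the smallest p of the ligands after injury. This RefSeq window is chr2:126034408-126034657 on the forward strand, 5′ to 3′, and it ends at the base before the gene. It is in lower case throughout because none of the motifs searched was found in it:
Fgf7: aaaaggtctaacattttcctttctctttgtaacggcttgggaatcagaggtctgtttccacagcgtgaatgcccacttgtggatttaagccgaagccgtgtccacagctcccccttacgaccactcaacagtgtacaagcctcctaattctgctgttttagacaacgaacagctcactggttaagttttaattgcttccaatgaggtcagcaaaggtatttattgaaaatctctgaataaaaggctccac
The window had a GC content of 43.6% and 6 CpG dinucleotides, against medians of 52.4% and 6 over 32851 promoter windows. The 4 motifs, searched on both strands, were the GC box GGGCGG (in 32.7% of all windows), TATAAA (12.4%), the AP-1 motif TGANTCA (6.75%) and the TEAD motif GGAATG (12.6%). For Fgf2 the listed window, chr3:37348403-37348652, precedes a start at base 37348653, and 176 of its bases lie inside the gene as annotated. It had a GC content of 62.4%, 20 CpG dinucleotides and 1 GC box, 43 bases before that start. A match describes the letters of a window and is no evidence of binding, and no match says only that these letters are not in it.

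The cells carried the markers of dermal mesenchyme, with 12 of 12 such genes above the array median on every array. Macrophage genes stood out on wound alprostadil replicate 1, where 15 of 15 were above the array median, against 3 to 12 of 15 on the other arrays. Their score, the mean of the genes after centring each on the 12 arrays, was 3.39 there and between -0.82 and 0.51 elsewhere. Ptprc, a gene of all leukocytes, read 10.44 there and at most 5.67 on the other arrays. On the remaining marker lists, 3 to 5 of 10 keratinocyte, 1 to 4 of 8 endothelial, 2 to 3 of 5 mural and 1 to 5 of 7 Schwann cell and melanocyte genes were above the median. On the first principal component, with 43.8% of the variance, the first and second wound vehicle isolates had scores of 34.1 and 38.9, and the third had -13.9. The alprostadil isolates were split likewise, at 19.3, 29.6 and -15.4. Uninjured isolates had -27.7, -24.6 and 7.5, and trimebutine isolates -10.8, -17.6 and -19.3.

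Fgf7, a fibroblast product that acts on epithelium, read 10.37, 9.13 and 8.94 log2 units in wound trimebutine, 9.33, 8.51 and 10.19 in wound alprostadil, 8.76, 8.91 and 9.33 in wound vehicle, and 11.06, 10.71 and 10.68 in uninjured vehicle cultures. All 9 wound arrays lay below all 3 uninjured arrays, while the 3 wound groups overlapped each other. The group means were 9.48 ± 0.78 with trimebutine, 9.34 ± 0.84 with alprostadil, 9.00 ± 0.30 with vehicle and 10.82 ± 0.21 in uninjured cultures (SD, n = 3 each). Fgf10, its close relative with the same receptor, read 8.63, 8.73 and 8.80 in wound trimebutine, 8.08, 7.83 and 8.62 in wound alprostadil, 7.91, 7.38 and 8.92 in wound vehicle, and 7.91, 8.46 and 8.39 in uninjured vehicle cultures. The trimebutine arrays lay close together and above the alprostadil and uninjured arrays, but wound vehicle replicate 3 was higher than any of them. The dimmer probe set of Fgf10 had means of 8.37 with trimebutine, 8.02 with alprostadil, 7.73 with vehicle and 8.09 in uninjured cultures, and followed the brighter one with r = 0.70 over the 12 arrays. It was above the array median on all 12 arrays, and its within-group SD was 0.22, against 0.47 for the brighter one.

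Fgf2, a mitogen of fibroblasts and endothelial cells, read 8.94, 8.84 and 9.41 in wound trimebutine, 8.42, 8.08 and 9.29 in wound alprostadil, 7.68, 8.07 and 8.85 in wound vehicle, and 9.65, 9.09 and 8.61 in uninjured vehicle cultures. The first and second vehicle-treated wound isolates were low, and the third reached into the range of the trimebutine and uninjured arrays. Fgf18, a ligand of mesenchyme that is active in skeleton and hair follicle, read 8.85, 8.63 and 8.28 in wound trimebutine, 8.55, 8.18 and 8.52 in wound alprostadil, 8.09, 7.96 and 8.03 in wound vehicle, and 7.44, 8.01 and 8.75 in uninjured vehicle cultures. Both drug groups lay wholly above wound vehicle, and the uninjured arrays overlapped all 3 wound groups.

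Hgf, which encodes the MET ligand, read 11.36, 10.87 and 10.73 in wound trimebutine, 11.08, 10.90 and 10.84 in wound alprostadil, 11.06, 11.26 and 10.84 in wound vehicle, and 11.55, 11.39 and 11.31 in uninjured vehicle cultures. The uninjured arrays lay above the wound alprostadil and wound vehicle arrays, and trimebutine replicate 1 reached into their range. Angpt1, which encodes the activating ligand of TEK, read 7.64, 7.57 and 7.64 in wound trimebutine, 6.10, 6.22 and 7.40 in wound alprostadil, 5.47, 5.56 and 7.12 in wound vehicle, and 7.86, 7.44 and 6.42 in uninjured vehicle cultures. Trimebutine arrays were nearly equal, with a mean of 7.62 ± 0.04, whereas the other groups were split, with means of 6.57 ± 0.72 with alprostadil, 6.05 ± 0.93 with vehicle and 7.24 ± 0.74 in uninjured cultures (SD, n = 3 each). Angpt1 was above the array median on 7 of the 12 arrays. Pdgfa, which encodes the chain that binds PDGFRA, read 8.80, 8.57 and 8.72 in wound trimebutine, 8.81, 8.88 and 8.62 in wound alprostadil, 9.04, 8.86 and 8.72 in wound vehicle, and 8.92, 8.16 and 8.75 in uninjured vehicle cultures, with all 4 groups overlapping.

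Nrg1, which encodes a ligand of ERBB3 and ERBB4, read 9.61, 9.50 and 8.32 in wound trimebutine, 9.37, 8.97 and 9.21 in wound alprostadil, 8.84, 8.18 and 9.27 in wound vehicle, and 10.73, 10.24 and 9.61 in uninjured vehicle cultures. The uninjured arrays lay above every alprostadil and vehicle wound array, and 1 trimebutine array equalled the lowest uninjured one to 2 decimals. Hbegf, at chr18:36504927-36515805, encodes a ligand of EGFR and ERBB4. It read 8.22, 8.30 and 8.12 in wound trimebutine, 8.69, 7.97 and 8.04 in wound alprostadil, 8.47, 7.88 and 8.02 in wound vehicle, and 8.38, 7.75 and 8.33 in uninjured vehicle cultures. Its group means lay between 8.12 and 8.23, and only 3.18% of its variance lay between groups, against 66.5% for Fgf7 and a median of 30.1% over all tested genes.

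**Figure D1:**
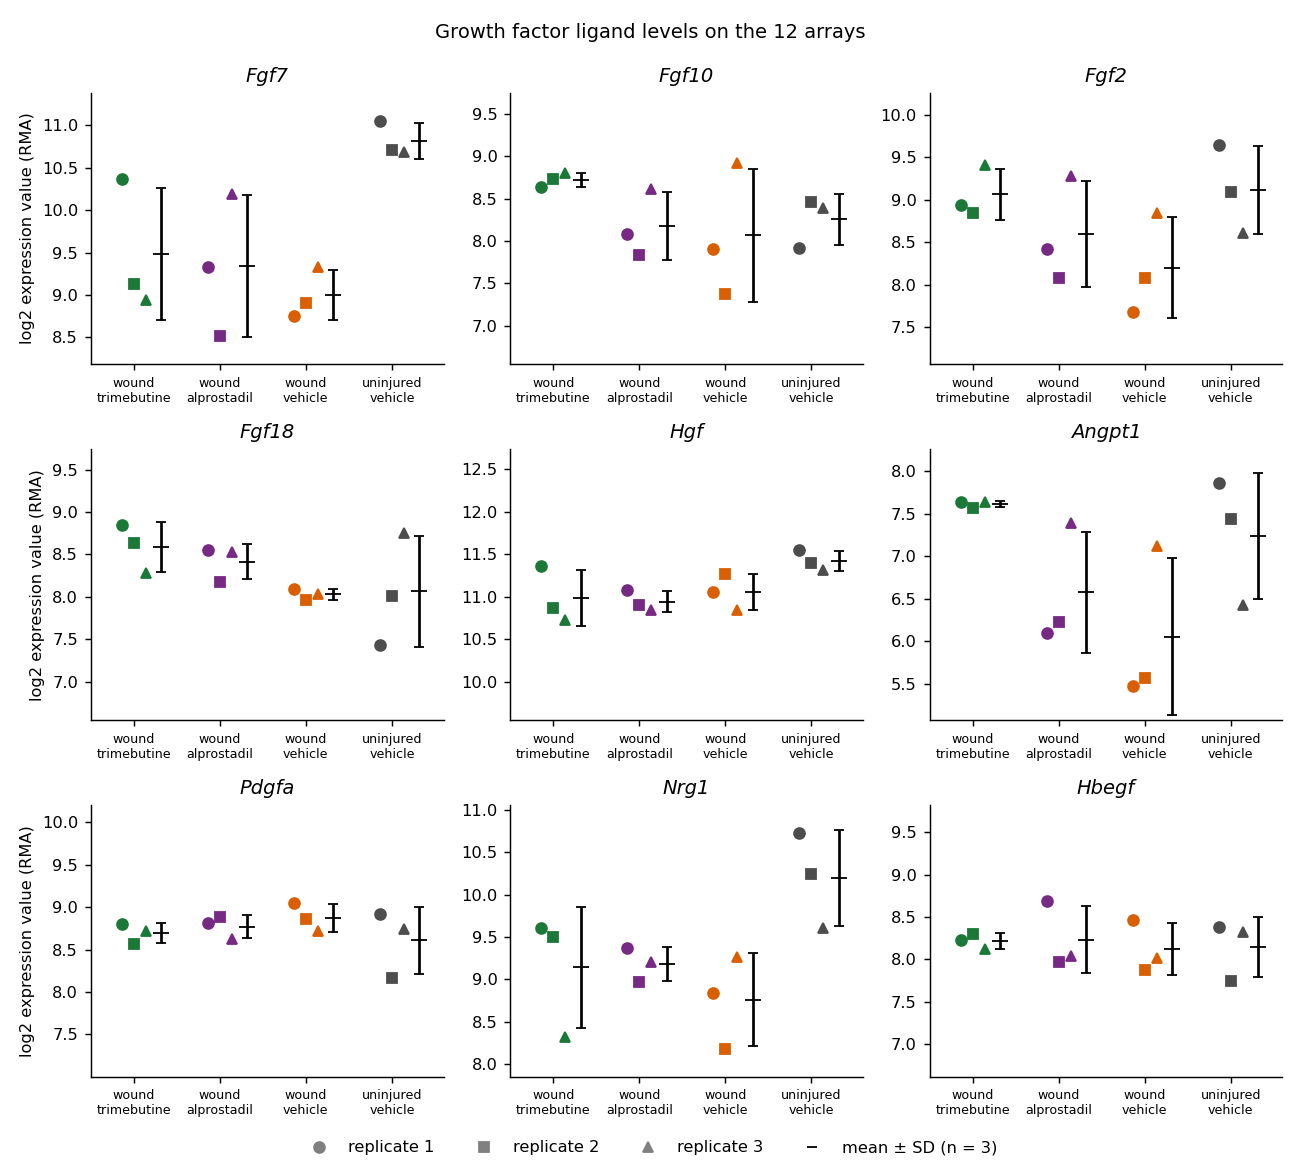
Log2 expression value of each ligand on each array, with groups in the order wound trimebutine, wound alprostadil, wound vehicle and uninjured vehicle, points for arrays and bars for the mean and SD of 3 arrays. For Fgf7 all 9 wound arrays lie below the 3 uninjured arrays, and the 3 trimebutine arrays of Angpt1 lie between 7.57 and 7.64.

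The comparison of wounded with uninjured skin, both given vehicle, asks how injury is reflected in the cells grown from it. No ligand passed the adjusted threshold, where 6 of 13153 genes did (0.0456%). Before adjustment 4 of 9 ligands were lower at p under 0.05, where 8.24% of all genes were lower and 4.75% higher. Fgf7 differed by -1.82 ± 0.44 log2 units (SE, 95% interval -2.78 to -0.85), which is 3.52-fold lower, with a limma adjusted p of 0.186 and lower in 3 of 3 wound arrays than in any uninjured array. Nrg1 differed by -1.43 ± 0.39 (interval -2.30 to -0.56), 2.70-fold lower, with a limma adjusted p of 0.205 and no overlap. Both differences were larger than the spread between arrays, but neither passed after adjustment over all genes. With arrays weighted by limma, 6 of 9 ligands passed, as did 4997 of all genes, and the weights ran from 0.30 to 5.99.

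Angpt1 differed by -1.19 ± 0.50 after injury and Fgf2 by -0.92 ± 0.38, with limma adjusted p of 0.363 and 0.360 and overlapping groups. Without wound vehicle replicate 3 the Angpt1 difference was -1.72. On its dimmer probe set, below the array median on all 12 arrays, it was -0.13. The brighter probe set was also below the array median on wound vehicle replicates 1 and 2. Hgf differed by -0.37 ± 0.17 with a limma adjusted p of 0.385, and its groups did not overlap. Groups also did not overlap for Fgf7 and Nrg1, making 3 of 9 ligands without overlap in the lower direction, where 10% of all genes were so and 8.01% were higher. On the dimmer probe set of Fgf10 the wound vehicle arrays also lay below the uninjured arrays, at most 8.04 against at least 8.05. The other ligands differed less: Pdgfa by 0.27 ± 0.18, Fgf10 by -0.19 ± 0.34, Fgf18 by -0.03 ± 0.28 and Hbegf by -0.03 ± 0.23 (limma adjusted p of 0.540, 0.834, 0.968 and 0.966). The median over the ligands was -0.37, against 0.01 over all tested genes, and 8 of 9 were below 0, against 48.6% of genes. The dermal mesenchyme markers had the same median of -0.37 in this comparison, with 11 of 12 below 0 and 4 lower without overlap, and their scores were -0.49 to 0.18 in wound vehicle and 0.11 to 0.33 in uninjured vehicle cultures. The macrophage markers had a median of 0.70, with 9 of 11 tested above 0, 3 higher and 1 lower without overlap. No marker passed, and the part of either list in the ligand differences was not tested. In bulk samples, fewer cells of a type and less RNA per cell cannot be told apart.

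Trimebutine-treated wounds were compared with vehicle-treated wounds to ask how the drug changes the cells of injured skin, and this comparison shares the vehicle-treated wound arrays with the previous one. No ligand and no other gene passed (0%), and the smallest limma adjusted p of any gene was 0.528. Without adjustment 1240 genes, or 9.43%, had p under 0.05, and 6.38% of all genes were higher at that level, as were 2 of 9 ligands. Angpt1 differed by 1.57 ± 0.50 (interval 0.45 to 2.68), with an adjusted p of 0.528 and every trimebutine array above every vehicle array. Wound vehicle replicates 1 and 2, at 5.47 and 5.56, were dim signals below their array medians of 6.73 and 6.74, so no fold is given. Fgf2 differed by 0.86 ± 0.38 with an adjusted p of 0.530, and its groups overlapped. With array weights 4 ligands passed, as did 4034 of all genes.

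The dimmer probe set of Angpt1, below the array median on all 12 arrays, gave a difference of 0.25 for the same comparison, and without wound vehicle replicate 3 the brighter one gave 2.10. Fgf10 differed by 0.65 ± 0.34 and Fgf18 by 0.56 ± 0.28, with adjusted p of 0.545 and 0.539. Fgf18 did not overlap between the groups, so that 2 of 9 ligands were higher without overlap, where 9.21% of all genes were. On its dimmer probe set Fgf10 differed by 0.63, there without overlap. For the others the differences were 0.48 ± 0.44 in Fgf7, 0.38 ± 0.39 in Nrg1, 0.09 ± 0.23 in Hbegf, -0.07 ± 0.17 in Hgf and -0.18 ± 0.18 in Pdgfa, with limma adjusted p between 0.681 and 0.882. Leaving out 1 array moved 6 of these 9 differences by over 1.5 times or across 0. That of Fgf10 was 0.31 without wound vehicle replicate 2 and 1.08 without replicate 3, that of Nrg1 0.089 without wound vehicle replicate 2 and 0.79 without trimebutine replicate 3, and that of Fgf7 0.033 without trimebutine replicate 1.

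The ligands' median with trimebutine was 0.48, against 0.00 over all tested genes, and 7 of 9 were above 0. Macrophage markers ran the other way, with a median of -0.80, 10 of 11 tested below 0 and 6 lower without overlap, where 6.63% of all genes were. Their scores were -0.81 to -0.11 in wound trimebutine against -0.088 to 0.51 in wound vehicle cultures, and none had an unadjusted limma p under 0.05. Lyz2, a lysozyme of myeloid cells, differed by -2.27 ± 1.25. Dermal mesenchyme markers had a median of 0.17, with 10 of 12 above 0 and 3 higher without overlap, where 9.21% of all genes were. No marker passed, and the part of either list in the ligand differences was not tested.

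Alprostadil-treated wounds were set against the same vehicle-treated wounds. No gene passed (0%), each ligand had a limma adjusted p of 0.998, and none of the 9 had an unadjusted p under 0.05, where 2.75% of all genes did. Angpt1 differed by 0.52 ± 0.50, Nrg1 by 0.42 ± 0.39, Fgf2 and Fgf18 by 0.39 ± 0.38 and 0.39 ± 0.28, and Fgf7 by 0.34 ± 0.44. Hbegf and Fgf10 differed by 0.11 ± 0.23 and 0.11 ± 0.34, Pdgfa by -0.10 ± 0.18 and Hgf by -0.11 ± 0.17. Fgf18 alone did not overlap, with an unadjusted limma p of 0.192, where 2.78% of all genes were higher without overlap. The median of 0.34 over the ligands, against 0.03 over all genes, was 0.045 without alprostadil replicate 3 and 0.32 without replicate 1, the array with high macrophage genes. Here the macrophage markers ran the same way as the ligands, with a median of 0.67, 10 of 11 tested above 0 and 0 without overlap. Their scores on alprostadil replicates 1 to 3 were 3.39, -0.82 and -0.30. Dermal mesenchyme markers had a median of 0.03, with 9 of 12 above 0 and 0 without overlap. The mesenchyme scores on alprostadil replicates 1 to 3 were -0.36, -0.36 and 0.19, and the ligand scores there were -0.09, -0.41 and 0.17. The part of either list was not tested.

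Leaving out 1 array moved 8 of the 9 alprostadil differences, all but that of Fgf18, by over 1.5 times or across 0. Angpt1 was 0.11 without alprostadil replicate 3 and 1.06 without wound vehicle replicate 3, and Fgf2 was 0.045 and 0.72 without the same arrays. Nrg1 was 0.13 without wound vehicle replicate 2 and 0.67 without replicate 3. Same-numbered arrays of the alprostadil and vehicle wounds deviated together, though the labels state no pairing. Within these same-numbered pairs Angpt1 was higher with alprostadil by 0.63, 0.66 and 0.28 and Fgf18 by 0.46, 0.21 and 0.49. Higher values in 3 of 3 pairs were found for 4 ligands and for 15.6% of all genes, and no gene passed with the pairs as a block.

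**Figure D2:**
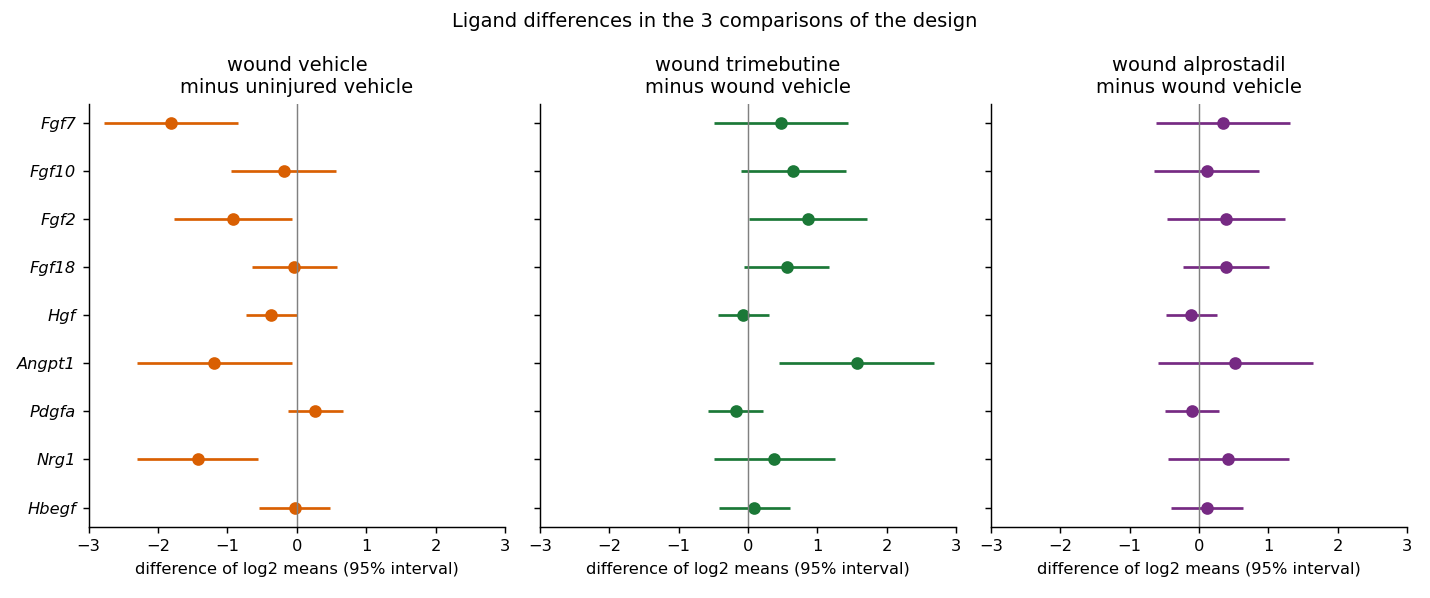
Difference in log2 units with its 95% interval for each of the 9 ligands in the comparisons of trimebutine with vehicle, alprostadil with vehicle and wound vehicle with uninjured vehicle. The intervals of Fgf7 (-2.78 to -0.85), Nrg1 (-2.30 to -0.56), Fgf2 (-1.77 to -0.06) and Angpt1 (-2.31 to -0.07) after injury lie below 0. Those of Angpt1 (0.45 to 2.68) and Fgf2 (0.01 to 1.71) with trimebutine lie above 0. No ligand passed the adjusted threshold.

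Against uninjured cultures, both drug groups were compared to see which ligands stayed apart from uninjured skin, with the uninjured arrays shared by all such comparisons. In trimebutine-treated wounds 26 genes passed (0.198%) and no ligand did. At an unadjusted p under 0.05, where 3.6% of all genes were lower, 3 ligands were lower: Fgf7 by -1.34 ± 0.44, Nrg1 by -1.05 ± 0.39 and Hgf by -0.43 ± 0.17 (limma adjusted p of 0.452, 0.567 and 0.582). Without trimebutine replicate 3 the Nrg1 difference was -0.64. Fgf7 was lower without overlap, where 6.61% of all genes were, and Fgf10 was higher without overlap, where 7.09% were. In alprostadil-treated wounds no gene passed (0%), and the same 3 ligands were lower at that level, where 3.97% of all genes were. Fgf7 differed by -1.47 ± 0.44, Hgf by -0.48 ± 0.17 and Nrg1 by -1.01 ± 0.39, with limma adjusted p of 0.565, 0.636 and 0.656, and none of these 3 overlapped with the uninjured arrays, where 4.36% of all genes were lower without overlap.

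Between trimebutine and alprostadil no gene passed (0%), and no ligand had an unadjusted p under 0.05, where 4.42% of all genes did. The compounds are not analogs of each other, and their doses are not given. The largest ligand difference was that of Angpt1, at 1.04 ± 0.50 with a limma adjusted p of 0.752. On their brighter probe sets Angpt1 and Fgf10 were higher with trimebutine without overlap, where 5.21% of all genes were. On the dimmer probe set of each, the drug groups overlapped. With the 3 wound groups averaged against uninjured vehicle, a comparison added after the data were seen, 32 genes passed (0.243%) and no ligand did. Fgf7 differed by -1.54 ± 0.36 (interval -2.33 to -0.75), 2.91-fold lower, with a limma adjusted p of 0.147. Its 9 wound arrays lay below its 3 uninjured arrays, which 1.27% of all genes showed in that direction. At an unadjusted p under 0.05, Nrg1 (-1.16 ± 0.32) and Hgf (-0.43 ± 0.14) were lower as well, where 6.05% of all genes were, with limma adjusted p of 0.219 and 0.279. For any difference among the 4 groups, the F test of limma called 2 genes (0.0152%), and the smallest adjusted p of a ligand was 0.553, for Fgf7.

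Wound vehicle had the lowest mean for 7 of 9 ligands, where this held for 32% of all tested genes, and uninjured vehicle had the highest for 4 of 9, where this held for 23.6%. The median within-group SD of the ligands was 0.47 log2 units, against 0.17 over all genes. The ligand score lay between -0.03 and 0.36 in wound trimebutine, -0.41 and 0.17 in wound alprostadil, -0.57 and -0.01 in wound vehicle, and 0.18 and 0.48 in uninjured vehicle cultures. On wound vehicle replicates 1 to 3 the scores were -0.43, -0.57 and -0.01, and those of the dermal mesenchyme markers were -0.26, -0.49 and 0.18.

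**Figure D3:**
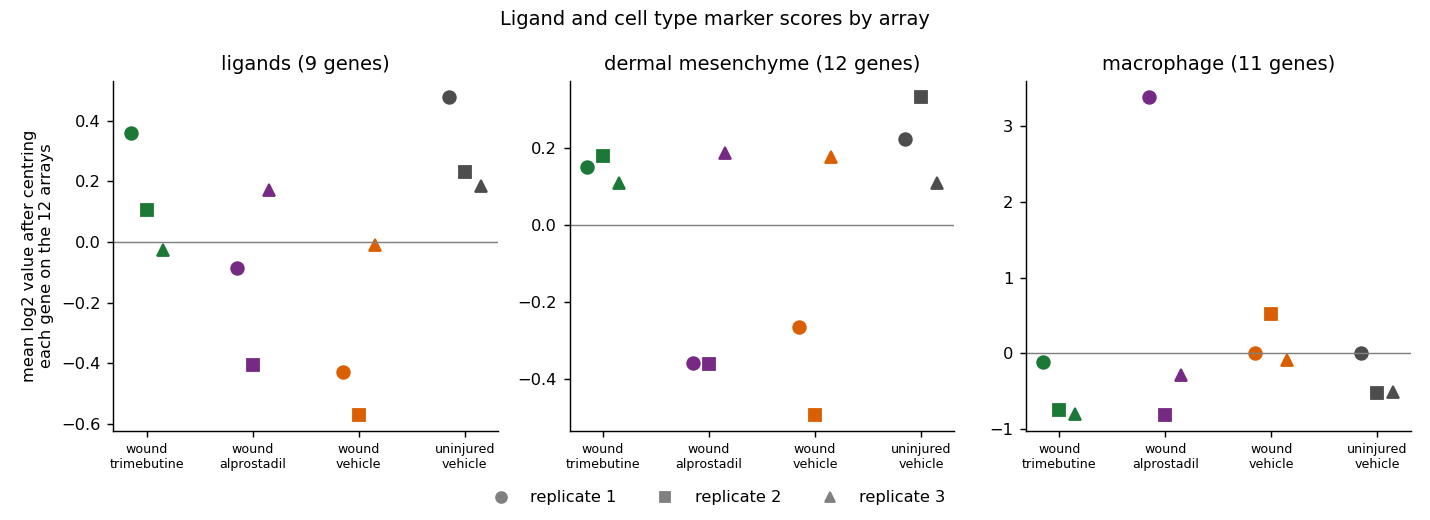
Score of the ligands, of dermal mesenchyme markers and of macrophage markers on each array, as the mean of the genes' log2 values after centring each gene on the 12 arrays. Wound vehicle replicates 1 and 2 have the lowest ligand scores (-0.43 and -0.57), and wound alprostadil replicate 1 has a macrophage score of 3.39.

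Of the 36 pairs among 9 ligands, 21 had a Pearson r above 0 over the 12 arrays, 15 were below 0 and 11 were above 0.5, with a median of 0.04. Fgf2 and Angpt1 were the most alike, with r = 0.93 and Spearman's rho = 0.89, and r = 0.91 after removing the group means. Fgf7 and Nrg1 had r = 0.81 and rho = 0.86, and r = 0.51 within groups. Fgf10 and Pdgfa were the least alike, with r = -0.50 and rho = -0.73. The values of a pair share their arrays and the normalization, and these correlations are descriptions without a test.

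**Figure D4:**
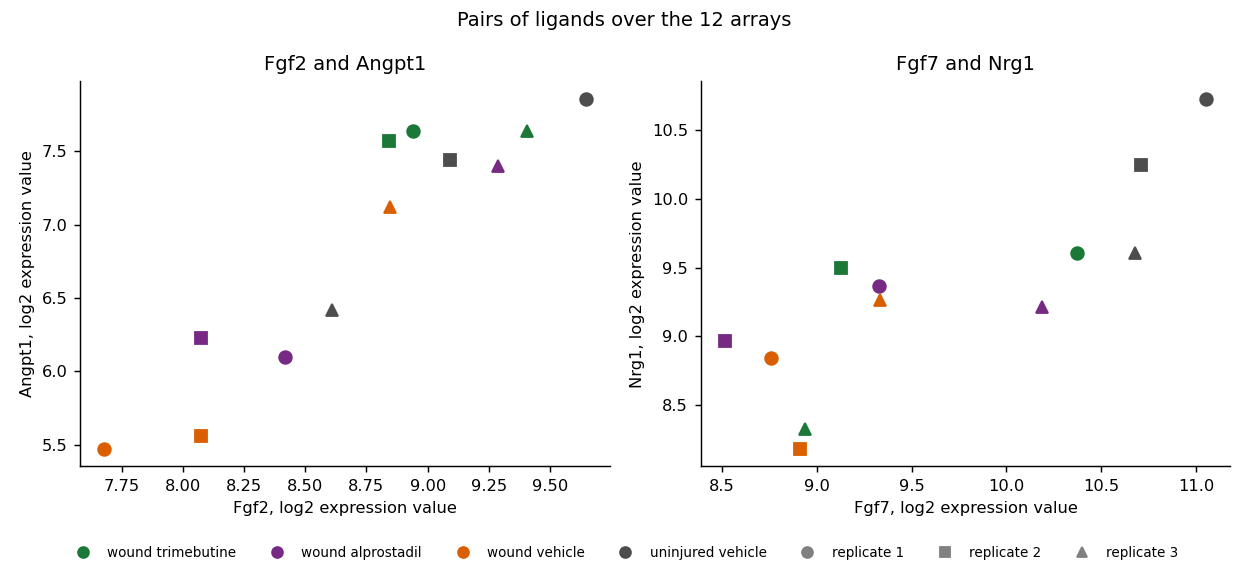
Log2 expression values of Fgf2 against Angpt1 and of Fgf7 against Nrg1 on the 12 arrays, coloured by group, with a symbol for each replicate number. Fgf2 and Angpt1 run together across all 4 groups (r = 0.93), and the 3 uninjured arrays have the highest Fgf7 values.

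Over 12373 tested genes, those whose pattern was most like Fgf7 were Smoc2 and Gpm6b (r = 0.97 and 0.96 over 12 arrays). For Nrg1 they were Pon3 and Cbr1 (both 0.95), for Fgf10 Vav3 and Arfgap1 (0.95 and 0.91), for Fgf2 Pxk and Gpr180 (0.97 and 0.96), and for Fgf18 Klf2 and Cldn12 (0.90 and 0.86). Those of Hgf were Pigk and Plcd3 (0.93 and 0.92), of Angpt1 Bcl9l and Ssc5d (0.98 and 0.97), of Pdgfa Tmem163 and Tmc6 (both 0.85), and of Hbegf Dck and Rnf40 (0.88 and 0.87). Each is the highest of many values searched and carries no test.

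Receptors of these ligands were measured in the same cultures, and 9 of 14 were tested. Fgfr3, Fgfr4, Tie1, Erbb3 and Erbb4 did not reach the array median on enough arrays. None of the 9 passed in any comparison. After injury Egfr, the receptor of HBEGF, differed by -0.99 ± 0.33 and Tek, that of ANGPT1, by 0.60 ± 0.18, with limma adjusted p of 0.282 and 0.221 and no overlap in either. For Egfr the nearest arrays read 11.37 in wound vehicle and 11.39 in uninjured vehicle cultures. Of the 9 receptors, 1 was lower without overlap, where 10% of all genes were, and 2 were higher, where 8.01% were. With trimebutine, Egfr differed by 0.92 ± 0.33 and Pdgfrb by 0.72 ± 0.26 from vehicle-treated wounds, both with a limma adjusted p of 0.528. With alprostadil, Fgfr2 differed by 0.56 ± 0.32 and the decoy-like Fgfrl1 by 0.20 ± 0.16. The epithelial form of FGFR2, which binds FGF7 and FGF10, was not measured apart from its other forms. The receptors' median was -0.32 after injury, 0.41 with trimebutine and 0.11 with alprostadil. Met, the HGF receptor, ranged from 7.37 to 9.09 over the 12 arrays. It read 8.48, 8.44 and 8.77 in wound vehicle and 7.85, 7.37 and 8.34 in uninjured vehicle cultures. Its difference of 0.71 was the highest of the tested receptors after injury, without overlap, while Hgf was lower.

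Other genes of the same families, taken by symbol whether or not they code for secreted ligands, gave 15 tested genes of 32 listed. None was called in any comparison, and the medians were 0.07 after injury, -0.01 with trimebutine and 0.09 with alprostadil. After injury Pdgfd, a ligand of PDGFRB, differed by -1.51 ± 0.31 and Angpt4, another TEK ligand, by -1.96 ± 0.42, with limma adjusted p of 0.119 and 0.132 and no overlap. These were the 2 of 15 that were lower without overlap, where 10% of all genes were, and 3 were higher, where 8.01% were. With trimebutine Angpt4 differed by 1.58 ± 0.42 and Fgf11 by 1.00 ± 0.33 (limma adjusted p of 0.528 for both). With alprostadil Angpt4 differed by 0.87 ± 0.42 and Fgf22 by -0.27 ± 0.09 (both 0.998).

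Of 37 genes for ligand release, activation and heparan sulfate, 31 were tested, and 1 passed, in 1 of the 6 comparisons and in the mean of all wounds. Adam19, a metalloprotease known in mice to release neuregulin, read 10.63, 10.63 and 10.80 in wound trimebutine, 10.38, 10.57 and 10.52 in wound alprostadil, 10.67, 10.67 and 10.75 in wound vehicle, and 10.24, 10.13 and 10.13 in uninjured vehicle cultures. All 9 wound arrays lay above the 3 uninjured arrays, which 1.29% of all genes showed in that direction. It rose by 0.52 ± 0.08 in trimebutine-treated wounds relative to uninjured vehicle with a limma adjusted p of 0.0443, which was 0.0524 to 0.247 with any 1 array left out. This call was lost under 20 of 22 alternatives and held with array weights and with a trended and robust variance, and the mean of its probe sets gave 0.38 with a limma adjusted p of 0.173. In all wounds together it rose by 0.46 ± 0.07, with a limma adjusted p of 0.0296, which was 0.0297 to 0.240 with 1 array left out and was lost under 12 of 21 alternatives. Relative to uninjured vehicle it differed by 0.53 ± 0.08 in vehicle-treated wounds (limma adjusted p of 0.0671), where Sdc4, a heparan sulfate carrier, differed by -1.14 ± 0.27 (0.186). With trimebutine Hs2st1, a heparan sulfate sulfotransferase, differed by 0.51 ± 0.14 and Spint1, an inhibitor of HGF-activating proteases, by -0.76 ± 0.21 from vehicle-treated wounds, and with alprostadil Adam19 by -0.21 ± 0.08 and Sdc4 by 0.63 ± 0.27, none of which passed.

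Genes that receptor signalling is known to induce gave 20 tested of 21 listed, again with no call. After injury Spry2, a feedback inhibitor of receptor tyrosine kinases, differed by -0.65 ± 0.15 and Egr1, an immediate early factor, by -0.84 ± 0.26 (limma adjusted p of 0.168 and 0.238). With trimebutine Spred3 differed by -0.54 ± 0.17 and Etv4 by -0.28 ± 0.13, and with alprostadil Etv4 by -0.24 ± 0.13 and Spry2 by 0.26 ± 0.15. The list's medians were 0.09 after injury, -0.12 with trimebutine and 0.11 with alprostadil.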

How the data were processed

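RNA of 12 sphere cultures was measured on Affymetrix Mouse Gene 2.0 ST arrays. The deposited file gives 1 log2 value per probe set and array, which the authors made with RMA in oligo according to the submitters' processing notes. No version or setting is given in the sources used here. Among 41345 probe sets, 23521 had a single symbol in the platform annotation and were used, 1814 had several and 16010 had no symbol. Keeping the brightest probe set per symbol gave 22180 genes, of which 13153 were above the array median on 3 or more of 12 arrays and were tested. The 4 groups shared 1 fit without covariates in limma 3.58.1 under R 4.3.3, with 8 residual degrees of freedom. P-values were two-sided and Benjamini-Hochberg adjusted across the 13153 genes, at a threshold of 0.05. They rest on the spread between isolates within groups, pooled over the 4 groups and moderated by limma toward that of all genes. With 3 isolates per group, the precision is limited by the number of arrays.

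The ligands, context lists and markers were chosen with earlier results of these data known. All 10 ligands were to be named, with differences in the first 3 comparisons and, in the other 3, where the unadjusted p was under 0.05. Each context list contributed its 2 genes of smallest p in each of the first 3 comparisons, and each ligand the 2 genes most like it by Pearson's r, predicted genes left out. Receptors of the ligands could be named too, and the markers Ptprc and Lyz2 were named after their values were seen. The mean of the wound groups against uninjured vehicle and the dimmer probe sets of Fgf10 and Angpt1 were added after seeing the data. The fit was run on simulated arrays with independent noise and added shifts larger than any ligand difference here. That run does not show how often differences of the size seen here would be called. Whether shared replicate numbers pair samples was checked from the data alone, by correlating deviations from the group means. All 3 same-numbered pairs were over 0.1 for alprostadil with vehicle wounds (r of 0.19, 0.43 and 0.62) and for trimebutine with alprostadil (0.57, 0.22 and 0.42), so the numbers were taken to pair these, but not the samples of the other 4 comparisons. The fit was repeated with a replicate block, with stricter and absent filters on dim signal, with averaged probe sets, after cyclic loess or median centring, with a trended and robust variance, with array weights, on the compared groups alone, and without single arrays or the 3 of lowest median. Promoter windows came from RefSeq for GRCm38.p6. Figures were drawn with matplotlib 3.10.9 in Python 3.11.15.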

Additional observations from a re-analysis of the deposited data

How the results depend on the processing

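The 36 ligand differences (9 ligands in each of the first 3 comparisons, and Fgf7, Nrg1 and Hgf in each drug group and in all wounds against uninjured vehicle) were recomputed under the alternatives, giving 798 values, of which 760 kept their direction and their side of the threshold, 21 reversed, 17 newly passed and 0 were lost. Those 17 all came from array weights, which ranged from 0.30 for wound alprostadil replicate 1 to 5.99 for uninjured vehicle replicate 2. With these weights 6 ligands passed after injury: Fgf7 (-1.90), Nrg1 (-1.53), Angpt1 (-1.78), Fgf2 (-1.24), Hgf (-0.31) and Pdgfa (0.70). The count of ligands was 4 with trimebutine, 4 and 1 for trimebutine and alprostadil against uninjured, 6 for all wounds and 8 in the F test, while genes called were 4997, 4034, 2171, 562, 4175 and 5302 in the same comparisons; the cause was not tested. Reversed were Angpt1 with alprostadil on its dimmer probe set (-0.10), Fgf18 after injury with weights (0.053), and Hbegf with weights (-0.20 with alprostadil, -0.029 with trimebutine, 0.44 after injury) and without the 3 arrays of lowest median (-0.12 with alprostadil, 0.084 after injury). With 1 array left out, ranges crossed 0 for Fgf10 (-0.24 to 0.53 with alprostadil, -0.61 to 0.16 after injury), Fgf18 (-0.35 to 0.31 after injury), Fgf7 (-0.080 to 0.76 with alprostadil), Hbegf (-0.12 to 0.29 with alprostadil, -0.026 to 0.27 with trimebutine, -0.24 to 0.088 after injury) and Hgf (-0.26 to 0.061 with trimebutine). Fgf7 kept -1.98 to -1.69 after injury, and ligands called stayed at 0. Genes called with 1 array left out ranged from 0 to 30 after injury (6 with all arrays), 0 to 11 with trimebutine, 0 to 1 with alprostadil, 0 to 30 and 0 to 11 for trimebutine and alprostadil against uninjured, 0 to 1 between the drugs, 0 to 76 for all wounds and 0 to 6 in the F test. The ligands' median ranged from -0.61 to -0.36 after injury, 0.15 to 0.69 with trimebutine, 0.045 to 0.51 with alprostadil, -0.14 to 0.21 and -0.53 to -0.26 against uninjured, -0.02 to 0.33 between the drugs and -0.48 to -0.18 for all wounds. Without the 3 arrays of lowest median it was 0.15 with trimebutine, -0.17 for alprostadil against uninjured and -0.11 for all wounds, and no gene was called after injury, for trimebutine against uninjured, for all wounds or in the F test (0 each). Genes called after injury were 1 with median centring and 0 with only the groups compared. For trimebutine against uninjured they were 12 with the filter on all 12 arrays, 16 with cyclic loess, 17 with centring and 15 with only the groups compared, and in the F test 0, 1 and 1 with that filter, loess and centring. With the replicate block over all 4 groups 2 genes were called after injury, 10 for trimebutine against uninjured and 0 in the F test, and 0 ligands. In the comparisons treated as paired (alprostadil with vehicle wounds, trimebutine with alprostadil), a block on those groups alone, added after seeing the data, called 0 genes in each, with a limma adjusted p of 0.920 for each ligand with alprostadil, and changed no call. Dim signal limits Angpt1, which was not tested with the mean of probe sets or the filter on all 12 arrays.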
